A study of Mus musculus with 8 samples.

Results

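The 10 genes followed here carry dietary fat and vitamin A through the absorptive cell and were measured in sorted epithelial cells of the mouse jejunum: the apolipoproteins Apoa1, Apoa4, Apoc3 and Apob, the chylomicron and triglyceride enzymes Mttp, Dgat1 and Dgat2, and the binding proteins Fabp1, Fabp2 and Rbp2. They were chosen by name for their role in fat absorption, with earlier results of these data known. Matching through their Ensembl identifiers found all 10 among the 48440 genes of the table. RNA came from 8 female mice of the Sox9-EGFP reporter strain (C57BL/6J background), all born germ-free and studied as 4 littermate pairs, A to D (each animal is named below by its group and pair). In each pair 1 mouse stayed germ-free, while its littermate was colonised at 8 to 10 weeks of age by gavage with fecal slurry from conventionally raised Sox9-EGFP mice and moved to another animal house. Both were studied 2 weeks later, so colonisation and the change of housing cannot be told apart. The cells had a low signal of the Sox9 reporter, a gate that is enriched for stem cells and defined by fluorescence alone, and dying, endothelial and blood cells had been gated out with Annexin-V and Sytox-blue, CD31 and CD45.

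Absorbed fatty acids and monoacylglycerols are carried through the enterocyte by fatty acid binding proteins and rebuilt into triglyceride by enzymes of the endoplasmic reticulum, the last step being that of the DGAT enzymes. Microsomal triglyceride transfer protein then loads the lipid onto apolipoprotein B to form the chylomicron, whose surface also takes up the small apolipoproteins before it leaves for the lymph. Vitamin A follows the same route as retinyl ester, after retinol has been bound by the cellular retinol-binding protein of the gut. These genes are known as products of mature enterocytes on the villus, whereas low Sox9 is known as a mark of the crypt.

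Depth on an approximate read scale ran from 6209041 to 19139685 per library. Sox9 was at 378 ± 109 CPM (library-size scaled signal, with TMM factors between libraries) after conventionalization and 246 ± 82.7 CPM without it (SD, n = 4 each). The germ-free animal C correlated with its own group at a median of 0.792, where each of the remaining 7 reached 0.871 to 0.943, and goblet cell markers reached 51558 CPM in the conventionalized animal A against 1635 to 8268 CPM elsewhere. None of 20 leukocyte markers reached the expression minimum of 10 CPM in 4 libraries, and their sum was 16.7 to 44.1 CPM after conventionalization and 31.5 to 45.01 CPM without it. Of 10 endothelial and lacteal markers 3 were tested, and limma called 2 lower in conventionalized animals, and 2 with the littermate pair as a block. These 10 summed to 16.35 to 45.025 CPM in conventionalized and 55.108 to 73.578 CPM in germ-free libraries, without overlap. Pecam1 was below 10 CPM in every conventionalized library and could be tested only as lower. Of 11 adipocyte and stromal markers 1 was tested, with 0 called by limma and 1 lower with the littermate pair as a block. Among them Adipoq was at 0 in every library. The sum of the list was 37.0 to 45.2 CPM in conventionalized and 60.8 to 159 CPM in germ-free libraries. Markers of enteroendocrine cells, the hormone cells of the gut, summed to 10436 to 27402 CPM in conventionalized and 45033 to 103990 CPM in germ-free libraries. Enterocyte markers outside lipid metabolism summed to 3429 to 9109 CPM and 5167 to 7767 CPM, and 6 of 25 tested fell in conventionalized animals (Sis, Slc15a1, Slc6a19, Cyp3a11, Krt20 and Nt5e) while 0 rose, and with the littermate pair as a block 6 fell and 2 rose. Cyp3a11 passed the minimum only through the germ-free libraries and could be tested only as lower.

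All 10 genes passed the expression minimum, and conventionalization moved none of them past the test in the fit without the littermate pair as a block. limma was fitted to the 10053 genes tested, with condition as its only term. It called 0 of the 10 higher and 0 lower at an adjusted p under 0.05. In this fit, which leaves the pairing out, an unadjusted p under 0.05 was reached by 0 of the 10, against 2793 of all 10053 tested genes. Over all tested genes limma called 4.92%, that is 1.16% higher and 3.76% lower in conventionalized animals. In 14.9% of tested genes the values of the 4 conventionalized libraries did not overlap with those of the 4 germ-free libraries (9.03% higher and 5.88% lower), and this held for 0 of the 10. The log2 fold changes of conventionalized over germ-free, on the scale of log2(CPM + 0.5), had a median of 0.43 over the 10 genes and 0.32 over all tested genes. Of the 10, 6 were above and 4 below 0, and the share of all tested genes above 0 was not counted. With the littermate pair as a block limma called 13.1% of all tested genes (8.08% higher and 5.02% lower), and of the 10 it called Rbp2 alone, as lower. An unadjusted p under 0.05 was then reached by 3569 of all 10053 tested genes, and the count among the 10 was not taken. Each of the 10 had a smaller SE than without the block, as for Dgat1 (0.28 against 0.39), Apoc3 (0.42 against 0.61) and Apoa1 (0.39 against 0.67). As these are bulk samples, fewer cells that express a gene and less RNA of it per cell cannot be told apart.

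**Figure D1:**
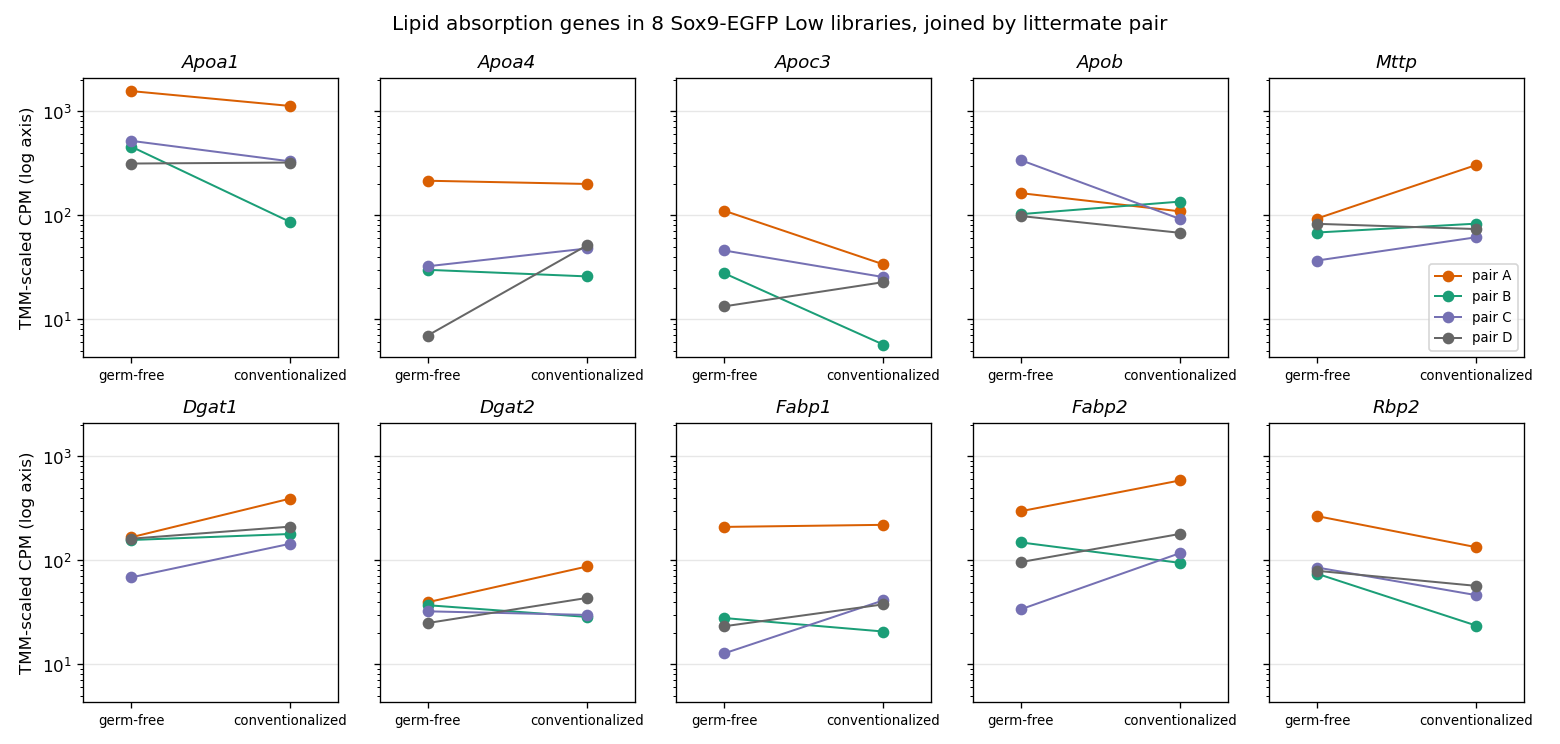
TMM-scaled CPM (log axis) of each of the 10 genes in the 4 germ-free and 4 conventionalized libraries, 1 panel per gene, with a line joining the littermates of each pair. On this scale the lines of pair A lie on top in 9 of the 10 panels, Apob being the exception (5 of 10 with library totals alone), and only in Rbp2 do all 4 lines go down and in Dgat1 all 4 go up.

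The genes of 3 small apolipoproteins sit side by side on chromosome 9 of GRCm38 (mm10). Apoa1 (ENSMUSG00000032083.8, 46228580 to 46230466, 4 exons) encodes the main protein of high-density lipoprotein, Apoc3 (ENSMUSG00000032081.9, 46232933 to 46235636, 4 exons, on the opposite strand) an inhibitor of lipoprotein clearance, and Apoa4 (ENSMUSG00000032080.6, 46240696 to 46243459, 3 exons) a chylomicron protein of the gut. Apoa1 was at 1122, 86.0, 329 and 321 CPM in conventionalized animals A, B, C and D and at 1560.2, 457, 519 and 314 CPM in their germ-free littermates. The germ-free animal was the higher of the pair in A, B and C, with near-equal values in D, and the group ranges overlapped. The log2 fold change was -0.88 (SE 0.67, 95% interval -2.32 to 0.57, limma adjusted p = 0.381, n = 4 per group), on means of 465 ± 453 and 713 ± 572 CPM. It was -1.51 without the conventionalized animal A and -0.25 without its counterpart B.

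Apoc3 was at 33.7, 5.71, 25.5 and 22.8 CPM in conventionalized animals A to D and at 111, 27.7, 45.9 and 13.3 CPM in germ-free ones. As with its neighbour Apoa1, the values were lower in the conventionalized littermate of pairs A, B and C and not of D (log2 fold change -0.99, SE 0.61, limma adjusted p = 0.277). Leaving out the germ-free animal D gave -1.47, and leaving out the conventionalized animal B -0.46. It is the least abundant of the 10 genes per library in the conventionalized group, at 21.9 ± 11.8 CPM.

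Apoa4, the other gene of the cluster, did not share that order. Its values were 199.9, 25.9, 48.0 and 51.4 CPM in conventionalized and 215, 29.9, 32.4 and 6.99 CPM in germ-free libraries, near-equal in pairs A and B and higher after conventionalization in C and D. The difference of pair D alone was 2.79 on the log2 scale and those of the others -0.21 to 0.56. The log2 fold change was 0.76 (SE 0.81, 95% interval -0.99 to 2.51, limma adjusted p = 0.535), and it was 0.01 without the germ-free animal D and 1.62 without the germ-free animal A. The annotation places the antisense gene Gm10680 over the end of Apoa4, and reads of the 2 cannot be told apart without strand.

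Apob (ENSMUSG00000020609.14, chromosome 12, 7977648 to 8016835, 29 exons) encodes the scaffold protein of the chylomicron and has by far the longest transcript of the group, 13934 bases. It was at 109, 135, 92.2 and 67.8 CPM in conventionalized and at 163, 103, 339 and 98.4 CPM in germ-free libraries. The germ-free animal was higher in pairs A, C and D, and the highest value was that of the germ-free animal C, which for Fabp1, Fabp2, Mttp and Dgat1 gave the lowest value of all 8 libraries. The log2 fold change was -0.65 (SE 0.39, 95% interval -1.49 to 0.20, limma adjusted p = 0.273), and without the germ-free animal C it was -0.27. In that library the 231 tested genes with transcripts of at least 10000 bases had a median of 0.32 above their own mean over the 8 libraries (log2), against -0.49 for all tested genes, and the part of this shift in the Apob value was not tested.

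The enzymes of triglyceride synthesis and loading had fold changes above 0, as did the median of all tested genes (0.32), and did not pass. Mttp (ENSMUSG00000028158.14, chromosome 3, 138089854 to 138144968, 18 exons), the transfer protein that loads Apob, was at 305, 83.1, 61.5 and 73.7 CPM in conventionalized and 93.1, 68.3, 36.7 and 82.8 CPM in germ-free libraries. Apart from the conventionalized animal A the 2 groups covered much the same range. The log2 fold change was 0.64 (SE 0.47, limma adjusted p = 0.356), and without that library it was 0.09. Trmt10a, on the opposite strand, overlaps the start of Mttp in the annotation, and its deposited signal reached 221 where the lowest of Mttp was 411, so that without strand some reads could belong to either.

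Dgat1 (ENSMUSG00000022555.11, chromosome 15, 76502015 to 76511953, 17 exons), an enzyme of the last step of triglyceride synthesis, was the only gene of the 10 with a higher value in the conventionalized littermate of all 4 pairs. It was at 392, 179, 144 and 211 CPM in conventionalized and 166, 157, 68.4 and 161 CPM in germ-free libraries, so that the 2 groups overlapped only through the conventionalized animal C. The log2 fold change was 0.72 (SE 0.39, 95% interval -0.11 to 1.55, limma adjusted p = 0.225, 0.0945 with the littermate block). Without the germ-free animal C it was 0.41 and without the conventionalized animal A 0.40. For Dgat1 as for Rbp2, the share of all tested genes with all 4 pairs in the same direction was not counted.

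Dgat2 (ENSMUSG00000030747.5, chromosome 7, 99153658 to 99182719, 8 exons), an enzyme of the same reaction and of no sequence kinship to Dgat1, was at 87.2, 28.6, 29.9 and 43.5 CPM in conventionalized and 39.5, 37.0, 32.3 and 24.9 CPM in germ-free libraries. The log2 fold change of 0.36 lay near the median of all tested genes (SE 0.35, limma adjusted p = 0.498). Without the conventionalized animal A it was -0.01.

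The fold changes of the cytosolic binding proteins differed in sign, and none passed in the fit without the block. Fabp1 (ENSMUSG00000054422.7, chromosome 6, 71199827 to 71205023, 4 exons), the liver-type fatty acid binding protein that the proximal gut also makes, had the widest gap between pair A and the rest. It was at 219, 20.7, 41.2 and 37.7 CPM in conventionalized and 209, 27.9, 12.7 and 23.2 CPM in germ-free libraries. Both animals of pair A were above 200 CPM and the other 6 below 42, whichever the condition. The log2 fold change was 0.50 (SE 0.79, 95% interval -1.20 to 2.20, limma adjusted p = 0.686), and it was -0.22 without the conventionalized animal A and 1.33 without its germ-free littermate.

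Fabp2 (ENSMUSG00000023057.5, chromosome 3, 122895072 to 122899506, 4 exons), the intestinal fatty acid binding protein, was at 585, 94.4, 117 and 179 CPM in conventionalized and 296, 149, 33.7 and 96.0 CPM in germ-free libraries. It was the higher in the conventionalized littermate in 3 pairs (A, C, D) and the lower in B. The log2 fold change was 0.75 (SE 0.64, 95% interval -0.62 to 2.12, limma adjusted p = 0.429), and without the germ-free animal C it was 0.19, and without the conventionalized animal A 0.17.

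Rbp2 (ENSMUSG00000032454.9, chromosome 9, 98486115 to 98509781, 5 exons), the retinol-binding protein of the enterocyte, was lower in the conventionalized animal of all 4 pairs. It was at 133, 23.5, 46.2 and 56.7 CPM in conventionalized and 266, 74.2, 85.2 and 79.2 CPM in germ-free libraries. The 2 groups overlapped only because the conventionalized animal of pair A exceeded the germ-free animals of B, C and D. The log2 fold change was -0.995 (SE 0.51, 95% interval -2.08 to 0.09), or 1.99-fold lower, with a limma adjusted p of 0.207. Within pairs the differences were -0.99, -1.64, -0.88 and -0.48 on the log2 scale, and with the littermate pair as a block Rbp2 fell (SE 0.27, limma adjusted p = 0.0349). That call needed all 4 pairs: with the block and 1 pair left out the adjusted p was 0.0982, 0.0546, 0.0815 and 0.0636 without A, B, C and D. Without the germ-free animal C and the conventionalized animal A the unpaired fit gave -1.54 and a limma adjusted p of 1e-04, but limma there shrank the standard deviation of Rbp2 to 0.393 from the gene's own 0.864. Gm37113 lies within Rbp2 on the same strand, so that reads of the 2 could be shared whatever the strand, and its deposited signal reached 73.7 where the lowest of Rbp2 was 242.

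**Figure D2:**
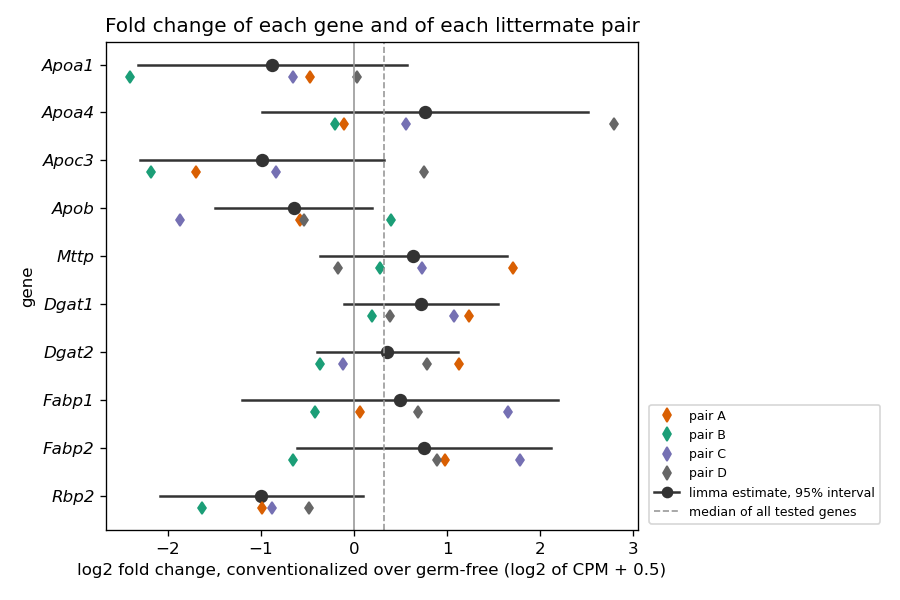
Log2 fold change of conventionalized over germ-free for each gene (circle, limma, with its 95% interval) and for each littermate pair (diamonds), with the median of all tested genes as a dashed line at 0.32. The intervals are those of the fit without the littermate block, and each covers 0. Intervals with the block are not drawn. The 4 diamonds lie on 1 side of 0 for Rbp2 (below) and Dgat1 (above), and on both sides for the other 8 genes. How often this holds over all tested genes was not counted.

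The upstream sequences of the genes on which these results turn are shown from RefSeq (GRCm38.p6), which gave a start for 7 of the 10 genes. They are the 250 bases before the start of Rbp2, the gene that fell with the block, of Fabp1, the gene with the widest gap between pair A and the rest, and of Apob, the gene that did not share it. Capitals mark the motifs found. The Rbp2 start lies 4422 bases inside the gene as GENCODE draws it, whose longest form begins further upstream. Those of Fabp1 and Apob lie 52 and 29 bases inside, so the distances of motifs given below hold for the RefSeq start only.
Rbp2 (plus strand, chr9:98490287-98490536): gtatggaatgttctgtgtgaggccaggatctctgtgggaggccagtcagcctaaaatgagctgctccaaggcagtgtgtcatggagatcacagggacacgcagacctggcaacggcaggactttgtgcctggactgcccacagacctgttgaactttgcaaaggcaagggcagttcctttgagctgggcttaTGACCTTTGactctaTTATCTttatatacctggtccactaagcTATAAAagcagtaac
Fabp1 (plus strand, chr6:71199629-71199878): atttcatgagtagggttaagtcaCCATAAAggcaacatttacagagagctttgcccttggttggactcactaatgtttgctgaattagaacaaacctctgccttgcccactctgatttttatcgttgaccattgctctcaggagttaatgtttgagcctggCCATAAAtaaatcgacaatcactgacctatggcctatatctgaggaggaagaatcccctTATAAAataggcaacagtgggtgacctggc
Apob (plus strand, chr12:7977427-7977676): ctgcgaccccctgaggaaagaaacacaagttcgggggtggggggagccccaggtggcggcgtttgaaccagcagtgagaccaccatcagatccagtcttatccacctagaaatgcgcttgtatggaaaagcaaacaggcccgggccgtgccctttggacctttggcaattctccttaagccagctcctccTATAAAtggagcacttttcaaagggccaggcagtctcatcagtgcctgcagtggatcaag

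Rbp2 held TATAAA from 15 to 10 bases before its start, the GATA-type motif AGATAA on the minus strand and the HNF4-type motif CAAAGGTCA on the minus strand, read above as TGACCTTTG. Fabp1 held TATAAA from 30 to 25 bases before its start and the CDX-type motif TTTATGG at 2 places on the minus strand. In Apob the TATAAA lay from 60 to 55 bases before the RefSeq start. TATAAA, searched on the strand of the gene alone, stood in 7.59% of 32851 promoter windows of this length, and, on both strands, AGATAA in 9.99%, TTTATGG in 2.43% and CAAAGGTCA in 0.426%. CAAAGTCCA, also searched on both strands, stood in 0.384% of all windows and in 0 of the 7. These matches describe the sequence and say nothing of binding.

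Per length of transcript the levels of the 10 genes spanned a wide range in both groups. Divided by the length of the longest coding transcript, Apoa1 stood highest, at 449 ± 437 CPM per kilobase in conventionalized and 688 ± 552 in germ-free animals. In conventionalized animals Fabp2 (253), Fabp1 (144), Dgat1 (123) and Rbp2 (80.9) followed, then Apoa4 (44.8), Mttp (33.0), Apoc3 (30.9), Dgat2 (20.9) and Apob (7.26). In germ-free animals the order was Rbp2 (157), Fabp2 (149), Fabp1 (123), Dgat1 (73.1), Apoc3 (69.7), Apoa4 (39.1), Mttp (17.7), Dgat2 (14.8) and Apob (12.6). Neighbours in either order differed by less than the larger of their SDs, except Dgat2 and Apob in conventionalized animals.

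Both animals of pair A gave the highest value of their group for 9 of the 10 genes, all but Apob, against 11.7% of all tested genes. Scaled by library totals alone this held for 5 of the 10 (Apoa1, Apoa4, Fabp1, Fabp2 and Rbp2), against 2.86% of all tested genes. Averaged over both conditions, pair A exceeded the geometric mean of the other pairs 8.29-fold for Fabp1, 7.38-fold for Apoa4, 4.46-fold for Apoa1, 4.17-fold for Fabp2, 3.34-fold for Rbp2 and 3.05-fold for Apoc3. The excess was 2.56-fold for Mttp, 1.81-fold for Dgat2 and 1.75-fold for Dgat1, and Apob showed the smallest (0.16 on the log2 scale). These contrasts were chosen after the values were seen.

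The littermate pair held a larger share of the spread over the 8 libraries than the condition for each of the 10 genes. The share of the sum of squares of log2 CPM that went with the pair ran from 37.2% for Apob to 89.3% for Fabp1 (median 67.1%), and that with the condition from 3.13% for Fabp1 to 31.2% for Dgat1 (median 14.7%). Over all tested genes the medians were 40.0% and 28.4%. The pair has more degrees of freedom than the condition, so that with no effect of either it takes the larger share. Tested with condition in the model, the pair term was called by limma in 0 of the 10 genes and in 0% of all tested genes, with 8 of the 10 and 9.76% of all genes at an unadjusted p under 0.05. The lowest adjusted p among the 10 was 0.269, for Fabp1.

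**Figure D3:**
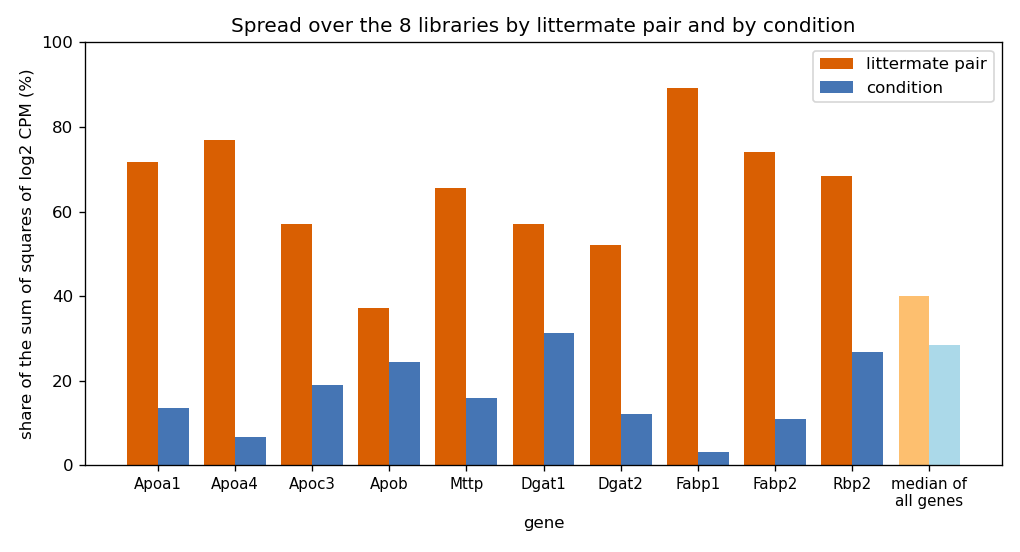
Share (%) of the sum of squares of log2 CPM over the 8 libraries that goes with the littermate pair (orange) and with the condition (blue) for each gene, and the medians over all tested genes (paler bars at the right). The pair bar is the taller for all 10 genes, from 37.2% for Apob to 89.3% for Fabp1.

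Other absorptive genes were also high in pair A. Enterocyte markers outside lipid metabolism summed to 9109 CPM in its conventionalized and 7767 CPM in its germ-free library, each the highest of its group, the other libraries being at 3429 to 4783 CPM and 5167 to 7070 CPM. Among germ-free libraries this order rests on the TMM factors, since as a share of the library the list was at 0.695% in A and 0.992% in C. The ileal and hepatocyte list was likewise highest there, at 328 and 341 CPM against 70.4 to 221 CPM. Goblet cell markers were high in the conventionalized animal A (51558 CPM) and not in the germ-free one (4154 CPM). The share of absorptive cells in these libraries was not measured, and its part in the pair difference was not tested. Litter, day of sorting and other handling that littermates may have shared cannot be told apart.

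The 10 genes differed in how alike their profiles were over the 8 libraries, measured as the root mean square difference of log2 CPM after each gene was centred on its own mean. The nearest were Mttp and Dgat1 (0.32), Apoa1 and Rbp2 (0.38), Dgat1 and Dgat2 (0.46) and Apoa1 and Apoc3 (0.48), and the farthest Apob and Fabp1 (1.67). Of the other tested genes Acsl5, which activates long-chain fatty acids, lay nearest to Dgat1 (0.10), Ugt2a3 to Mttp (0.19), Sult1b1 to Fabp2 (0.31) and Krt19 to Dgat2 (0.17). Cox7a1 lay nearest to both Apoa1 (0.35) and Rbp2 (0.35), with Aldh1a1, an enzyme of retinoic acid synthesis, next for Rbp2 (0.35). Apoc2, an activator of lipoprotein lipase, was nearest to Fabp1 (0.45) and second for Apoa4 (0.65), after the amino acid transporter Slc7a9 (0.59). Mfsd6 (0.16) was nearest to Apob and Cdc42ep2 (0.43) to Apoc3.

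Ratios of 2 of the genes within a library, which do not depend on the scaling between libraries, were compared in the same way. Of the 45 ratios, 7 (15.6%) had values that did not overlap between the groups, against 19.2% of all pairs of the 10028 tested genes that were above 0 in every library. Of these 7, 5 had Rbp2 as 1 of the 2 genes. The log2 ratio of Fabp2 to Rbp2 was 1.34 to 2.13 in conventionalized and -1.34 to 1.001 in germ-free libraries, and higher in the conventionalized animal of all 4 pairs. That of Apoa1 to Apoa4, neighbours on chromosome 9, was 1.73 to 2.78 and 2.86 to 5.49, and lower in all 4. The share among the 45 was thus not above that of all gene pairs, and the ratios were added after the values were seen.

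Around the 10 genes, 109 other lipid genes in 8 lists were tested. In conventionalized animals limma called 6 lower (5.5%, against 3.76% of all tested genes) and 0 higher (against 1.16%). At an unadjusted p under 0.05 there were 24 higher and 11 lower, where 2793 of all 10053 tested genes passed in either direction. With the littermate block 11 rose (10.1%, against 8.08%) and 10 fell (9.17%, against 5.02%). Among the 6 were Bco1 and Rbp4 of retinoid handling, the lipoprotein receptor Scarb1, the lipase Mgll and the apolipoprotein Apom. Apom was below 10 CPM in every conventionalized library and so was tested only through its germ-free values, which left it no way to be called higher. The summed enteroendocrine markers, 10436 to 27402 CPM against 45033 to 103990 CPM, moved the same way, and their part in these calls was not tested.

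Among genes of vitamin A, Bco1, which cleaves carotene to retinal, fell from 47.2 ± 10.4 to 15.1 ± 3.23 CPM (log2 fold change -1.62, SE 0.28, limma adjusted p = 0.00739). Its germ-free values ran from 38.5 to 61.4 CPM and its conventionalized ones from 11.6 to 18.2 CPM. It was called in all 8 fits without 1 library and not without both animals of pair A (limma adjusted p = 0.0995). That last fit called 0 of all 9770 genes it tested. With the block and without pair A Bco1 was called lower (limma adjusted p = 0.0325). Rbp4, the carrier of retinol in plasma, fell from 339 ± 184 to 121 ± 39.2 CPM (-1.41, limma adjusted p = 0.0465). The Rbp4 call was lost in 6 of the 8 fits without 1 library and in all 4 without 1 pair. Of 12 tested genes of the retinoid list 1 fell, 0 rose and 10 had fold changes above 0. Among the 10 were the oxidoreductase Dhrs4 (361 against 209 CPM, limma adjusted p = 0.177) and the intestinal repressor of carotene cleavage Isx (122 against 81.5 CPM, 0.275). The median of the list was 0.72, against 0.32 for all tested genes, whose share above 0 was not counted.

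Of 11 tested genes of uptake and efflux, Scarb1, the receptor of high-density lipoprotein, fell from 137 ± 49.7 to 41.1 ± 11.5 CPM (log2 fold change -1.69, limma adjusted p = 0.0108). It was called in all 8 fits without 1 library and not without both animals of pair A (limma adjusted p = 0.127). That last fit called 0 of all 9770 genes it tested. With the block and without pair A Scarb1 was called lower (limma adjusted p = 0.0219). The fatty acid transporter Slc27a2 (262 against 164 CPM, limma adjusted p = 0.173) and Got2 (201 against 109.5 CPM, 0.135), the most abundant of the list, did not pass. The sterol exporter Abcg5 was at 76.3 ± 20.6 against 31.8 ± 12.4 CPM without passing (limma adjusted p = 0.0501, 0.0175 with the block), and the fatty acid transporter Slc27a4 at 55.6 against 105 CPM (0.111, 0.0477 with the block).

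Of 12 tested genes of lipid droplets and lipolysis, Mgll, which splits monoacylglycerol, fell from 191 ± 49.4 to 49.4 ± 25.6 CPM (-2.08, limma adjusted p = 0.0103). It was called in all 8 fits without 1 library, but not without pair A (limma adjusted p = 0.093) or pair C (0.0579). The fit without pair A called 0 of all 9770 genes it tested. With the block Mgll was called lower without pair A (limma adjusted p = 0.00424) and without pair C (7.54e-05). The lipase Pnpla2 (312 against 170 CPM, limma adjusted p = 0.124) and the droplet coat protein Plin3 (237 against 157 CPM, 0.241) did not pass.

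Of 5 tested other apolipoproteins Apom, a carrier of sphingosine phosphate, fell from 21.2 ± 7.47 to 5.73 ± 1.89 CPM (log2 fold change -1.77, limma adjusted p = 0.0222). That call was lost without the conventionalized animal A, B or C (limma adjusted p = 0.0591, 0.073 and 0.0589), and without any germ-free library the gene missed the expression minimum. Apoa5, of the same chromosome 9 cluster as Apoa1, was at 6.29 ± 4.43 against 24.1 ± 12.3 CPM (limma adjusted p = 0.0556, 0.0335 with the block). Apool and Apoo, mitochondrial proteins despite the name, were the most abundant of the list at 52.1 against 31.2 and 27.4 against 18.0 CPM (limma adjusted p = 0.182 and 0.276). The other binding proteins were uneven, with Fabp5 at 206 ± 78.2 against 514 ± 297 CPM (limma adjusted p = 0.0941) and the acyl-CoA binding protein Dbi at 689 against 293 CPM (0.11, 0.0417 with the block).

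The shared machinery of chylomicron making gave no calls in the fit without the block. Of 18 tested genes of fatty acid activation and triglyceride synthesis 0 were called by limma (median log2 fold change 0.27), with 3 at an unadjusted p under 0.05 and 3 called higher with the block, Agpat4, Agpat5 and Soat1. Of 21 genes of assembly and secretion 0 were called (median 0.22), with 1 at an unadjusted p under 0.05 and 1 higher with the block. Of all 10053 tested genes 2793 had an unadjusted p under 0.05. P4hb, the partner subunit of Mttp, was at 933 against 672 CPM (limma adjusted p = 0.514), Surf4, a cargo receptor, at 421 against 343 CPM (0.681), Acsl5 at 241 against 142 CPM (0.215) and Soat1, which esterifies cholesterol, at 166 against 81.6 CPM (0.131, 0.0456 with the block).

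Regulators known to act on these genes were likewise without a call. Of 24 tested 0 were called by limma and 22 had fold changes above 0 (median 0.61, against 0.32 for all tested genes). The share of all tested genes above 0 was not counted. An unadjusted p under 0.05 was reached by 10 of them, and by 2793 of all 10053 tested genes. With the block 2 rose and 1 fell. Hnf4a, the nuclear receptor that drives many enterocyte lipid genes, was at 518 against 372 CPM (limma adjusted p = 0.342). Elf3 (1039 against 570 CPM, 0.175) and Klf5 (778 against 450 CPM, 0.196) were the most abundant.

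**Figure D4:**
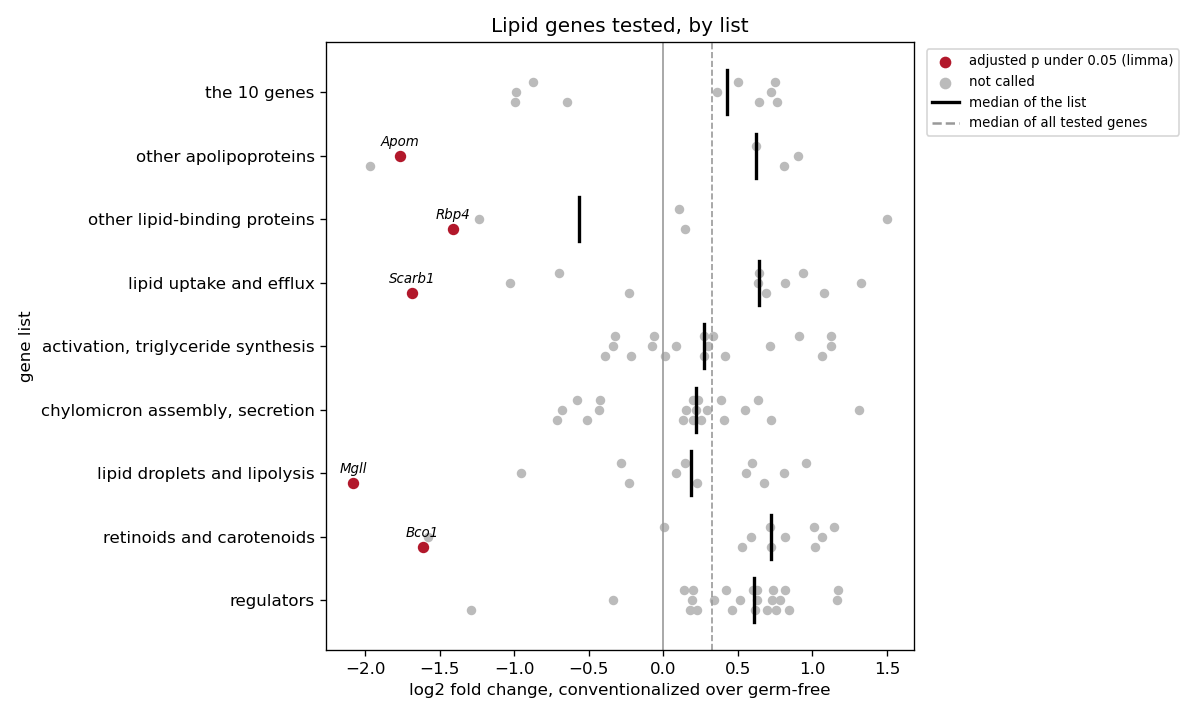
Log2 fold change of conventionalized over germ-free for the 10 genes and the tested genes of the 8 other lipid lists that are reported here (1 point per gene), with the median of each whole list (black bar) and of all tested genes (dashed line at 0.32). Red points passed limma at an adjusted p under 0.05: Apom, Rbp4, Scarb1, Mgll and Bco1, all below 0, and none of the 10.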

How the data were processed

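The authors deposited 1 table of normalized signal per gene, with values for 48440 genes in 8 libraries made from 10 ng of RNA with 100-base single-end reads. The submitters' processing notes name the build mm10, STAR 2.4.2a, DESeq2 1.12.4, Trimmomatic 0.36 and R 3.3.1, whereas the series text names Salmon and edgeR. Which of these made the table is not stated. In 27909 genes with a single transcript 99.8% of the values were whole multiples of a step per library (tolerance 0.02), and in 20149 genes with several 23.6%, so the values are not raw counts and no count test was used. Depths on the read scale are therefore approximate.

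Signal was divided by library totals and scaled with TMM factors (trims of 30% and 5%, computed from the formula) to CPM. Genes that reached 10 CPM in 4 or more libraries were tested with limma 3.58.1 in R 4.3.3 (trend and robust options, two-sided) on log2(CPM + 0.5), which understates the change of low genes, with Benjamini-Hochberg adjustment over 10053 genes and calls under 0.05. The code was tested on simulated data. The replicates are separate animals, and the pairs are those of the labels, which name littermates. The deviations of littermates from their group means correlated at 0.14, -0.16, 0.31 and -0.01 in pairs A to D. Leaving out libraries or pairs, other scalings, filters and pseudocounts, quality weights and the littermate block were the alternatives.

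The 10 genes and all lists were chosen with earlier results of these data known. Named besides the 10 are, from each lipid list, the called genes and the 2 most abundant, and the genes nearest in profile. Abcg5, Slc27a4, Apoa5, Hnf4a, Agpat4 and Agpat5 were named after their values were seen. Some genes that enter the counts are not reported here by name. Promoters are those of RefSeq, and positions and lengths those of GENCODE M21.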

Additional observations from a re-analysis of the deposited data

Results flagged for a closer look

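In 8 of the 20 sets of 4 values (10 genes in 2 groups) 1 library stood far from the other 3, its gap to the nearest exceeding the 95% critical share of the range of its group in Dixon's test. The shares were taken on CPM and not on the log2 scale of the other tests, so that high values stand out more. Chance gives this in about 1 in 20 groups only where values are normally distributed, which was not tested. The 10 genes also share their libraries, so that the 8 are not independent. How often the other tested genes would be flagged in this way was not counted. Pair A supplied 7 of the 8. In its germ-free library Apoa1 was at 1560.2 CPM (nearest 519), Apoa4 at 215 CPM (32.4), Fabp1 at 209 CPM (27.9) and Rbp2 at 266 CPM (85.2). In its conventionalized library Apoa4 was at 199.9 CPM (51.4), Fabp1 at 219 CPM (41.2) and Mttp at 305 CPM (83.1). The remaining value was a low one, Dgat1 at 68.4 CPM in the germ-free animal C (157).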

How the results depend on the processing

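The design of 4 against 4 left wide intervals: without the block, the span of the 95% interval exceeded 1 log2 unit for each of the 10 genes. Over the other scalings, pseudocounts and filters each of the 10 kept its sign and 0 were called. TMM scaling put the median of all tested genes at 0.32 and library totals alone at 0.09, and fold changes are to be read against it. With library quality weights Apoa4 was at -0.04 and Fabp1 at -0.30. Without the conventionalized animal A Fabp1 was at -0.22 and Dgat2 at -0.01, and without that library and the germ-free animal C Fabp1 was at -0.69, Fabp2 at -0.36 and Mttp at -0.16, with 1 of the 10 lower (Rbp2). The cause was not tested.

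With the littermate pair as a replicate block 1 of the 10 was called lower, and of all genes 812 were higher and 505 lower, against 117 and 378 without the block, so that 61.7% rather than 23.6% of calls were higher. Of other lipid genes 11 were then higher and 10 lower. With the block and without pair B 2 of the 10 were higher (Fabp2, Dgat1) and 1 lower (Apob), with 2408 of all genes and 32 other lipid genes higher. With the block 1 was lower without pair D (Apoc3), with 47 of all genes higher, while without pair A 321 of all genes and 4 other lipid genes were higher and without pair C 1 other lipid gene.

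Without the block, the count of all genes called higher was 263 with upper-quartile scaling, 244 with a pseudocount of 5, 45 with no filter and 765 with quality weights (608 lower), and 39.2%, 35.5%, 12.6% and 55.7% of calls were higher. Other lipid genes called higher numbered 1 with library totals, 2 with upper-quartile scaling, 1 with median-of-ratios scaling, 2 with a pseudocount of 5 and 11 with quality weights (10 lower). Without both libraries that stood apart 235 of all genes were higher, and of other lipid genes 1 was higher and 11 lower. Leaving out 1 library gave 14 to 410 of all genes higher and 151 to 372 lower, and 0 to 4 other lipid genes higher and 3 to 7 lower. Over those fits the 10 genes gave 0 calls, with Fabp1 at -0.22 to 1.33 and Dgat2 at -0.01 to 0.55. Without pair A limma called 0 of all genes higher, 0 lower and 0 other lipid genes lower, with 1682 of all genes at an unadjusted p under 0.05. Without pair B 386 of all genes and 4 other lipid genes were higher. Without pair C 54 were higher and 160 lower, with 1 and 3 of the other lipid genes, and without pair D 7 were higher and 203 lower.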

Other observations

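Marker lists of other cell states gave calls in both directions. Of 12 proliferation markers 5 rose in conventionalized animals by limma (11 with the littermate block) and 0 fell, with sums of 1738 to 2577 CPM against 235 to 1293 CPM, and of 12 stem cell markers 1 rose (5 with the block), with sums of 5782 to 11074 CPM against 1076 to 5841 CPM. Of 15 enteroendocrine markers 8 fell (11 with the block) and 0 rose. The sums of adipocyte and stromal markers were 37.0 to 45.2 CPM against 60.8 to 159 CPM.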
